A study of Mus musculus with 18 samples.

Results

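Embryonic stem cells that lack a working Pax7 gene were compared with cells that have it, in the undifferentiated state. The comparison used 6 of the 18 arrays of the series: 3 of Pax7-/- cells and 3 of Pax7+/+ cells at day 0, grouped by their labels. Both lines had an F1 background of C57Bl6N and 129Sv, and both were grown in KO-DMEM with LIF, the cytokine that holds mouse stem cells undifferentiated. The other 12 arrays hold these genotypes on day 7 (embryoid bodies) and day 21 (outgrowths), both without LIF and with RA and ITS. The labels do not say how the Pax7 allele was made, how many clones stand behind each genotype, or whether feeder cells were present. In bulk RNA, fewer cells of a type and less RNA per cell cannot be told apart.

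Pax7 encodes a paired box transcription factor, best known from muscle satellite cells and the neural crest. Undifferentiated mouse stem cells rest on a network around Pou5f1, Sox2 and Nanog. Some cells in such cultures drift towards primitive endoderm, the extraembryonic lineage that is set by Gata6 and that lays down laminin and collagen IV. A separate programme used below is the amino acid response, in which the factor ATF4 raises genes for amino acid synthesis and uptake and for tRNA charging when amino acids run short or protein folding is strained.

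Each array was deposited as RMA log2 values, of which 1 probe set was kept for each of 22180 genes. By the standard deviation of their values the arrays form 2 sets, called narrow (1.6 log2 or less) and wide. At day 0 each genotype had 2 narrow arrays and 1 wide array, so the genotypes were balanced over the sets. The wide arrays were replicate 3 of Pax7+/+ and replicate 2 of Pax7-/-. Values are given in the order of the replicate numbers, and every difference is Pax7-/- minus Pax7+/+ on the log2 scale. Differences come from a limma fit in which the array set was a block. Unless stated, that fit ran over all 18 arrays, so its standard errors and p-values draw on the spread at days 7 and 21 too. The Pax7 probe set read 6.06, 6.22 and 4.79 in Pax7+/+ and 6.37, 4.76 and 6.02 in Pax7-/-, a difference of 0.03 ± 0.23 (SE, adjusted p = 0.98). The position of its probes against the Pax7 mutation is not given in the sources used here, so this reading cannot check the genotype labels. The mean over 8 stem cell markers on narrow arrays was 7.51 to 7.67 at day 0, 6.14 to 6.63 at day 7 and 5.76 to 5.89 at day 21. On wide arrays it was 8.24 in Pax7+/+ and 8.63 in Pax7-/- at day 0. In the same order it was 7.60 to 7.61 and 7.30 at day 7, and 5.98 and 6.84 to 6.87 at day 21.

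Of the 22180 genes, 284 (1.28%) passed an adjusted p of 0.05 at day 0, of which 86 (0.388%) were higher and 198 (0.893%) lower in Pax7-/- cells. A difference of at least 2-fold was seen for 68 of these, 20 higher and 48 lower. All 284 had the same direction on narrow and on wide arrays, and in none did the genotypes overlap within a set. Over all genes 24.8% were without overlap. The 284 were chosen on these same values with the array set as a block. Their agreement within sets therefore follows largely from the choice and is no separate support. With the values centred and scaled to 1 spread, 135 genes were higher and 200 lower. The calls rest on the block: without the array set in the fit limma passed 0 genes, with 167 at an unadjusted p under 0.05 against 2506 with it. The differences were the same in both fits, while their median standard error was 0.14 with the set and 0.39 without. With 1 array left out the count fell to 120, 167 and 184 without Pax7+/+ replicates 1, 2 and 3, and to 145, 155 and 152 without Pax7-/- replicates 1, 2 and 3. Over all genes, 84 of the 284 passed in every one of these 6 fits. Of the 87 called genes named in the text, 37 passed in all 6, 42 in some and 8 in none, and all 87 kept their direction.

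Genes of primitive and parietal endoderm and of the basement membrane were among the largest rises. Lama1, the alpha chain of the laminin of early basement membranes, read 5.62, 5.62 and 6.82 in Pax7+/+ and 7.87, 9.41 and 7.93 in Pax7-/-. All 3 Pax7-/- arrays lay above all 3 Pax7+/+ arrays, with a difference of 2.38 ± 0.20 (SE, n = 3 per genotype, 5.22-fold, adjusted p = 1.82e-05). Srgn, the proteoglycan serglycin, read 5.97, 5.94 and 6.41 against 7.63, 8.80 and 8.11, a difference of 2.07 ± 0.16 with no overlap either. Gata6, the factor that sets the primitive endoderm fate, read 5.67, 5.45 and 5.96 against 6.30, 8.20 and 6.36, a difference of 1.26 ± 0.27 (adjusted p = 0.03). Its wide Pax7-/- array stood apart: the difference was 0.77 on narrow arrays and 2.24 on wide ones. Gata6 lost its call without any 1 of the Pax7-/- arrays (adjusted p up to 0.123), and without replicate 2, the wide one, its difference was 0.73.

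Of 18 measured parietal endoderm genes, 5 rose, 0 fell and 13 did not pass, and their median difference was 0.54 against 0.01 over all genes. Besides Lama1 and Srgn these were the laminin beta chain Lamb1 (1.00 ± 0.22), the keratin Krt18 (0.93 ± 0.22) and the matrix protein Sparc (0.53 ± 0.12). With 1 array left out the count was 2 to 3: Lama1 and Srgn passed each time, with adjusted p up to 0.000348 for Lama1. Lamb1 kept its call only without Pax7+/+ replicate 3 (adjusted p up to 0.16), and Krt18 and Sparc lost theirs in each of the 6 fits (up to 0.187 and 0.159). Of 19 laminin, collagen IV and nidogen genes 3 rose, the third being the linker protein Nid2 (0.54 ± 0.12), which passed in 1 of the 6 fits with an array left out (adjusted p up to 0.155). In those fits 1 or 2 genes of this list rose. The other 16 did not pass, among them Nid1 at -0.88, and the median of the list was -0.02. Among 11 primitive endoderm transcription factors only Gata6 passed, and the median was 0.28. Of 20 genes of visceral endoderm and its uptake receptors 2 rose and 1 fell. Cubn, the receptor cubilin, read 5.05, 5.09 and 5.99 against 6.32, 8.81 and 6.56 (1.85 ± 0.43), and its partner Lrp2, megalin, was higher by 0.84 ± 0.18. Apoe, a lipid carrier, was lower by -0.73 ± 0.16. Cubn and Apoe lost their calls with any 1 array left out (adjusted p up to 0.208 and 0.125), and Lrp2 in 5 of the 6 fits.

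**Figure D1:**
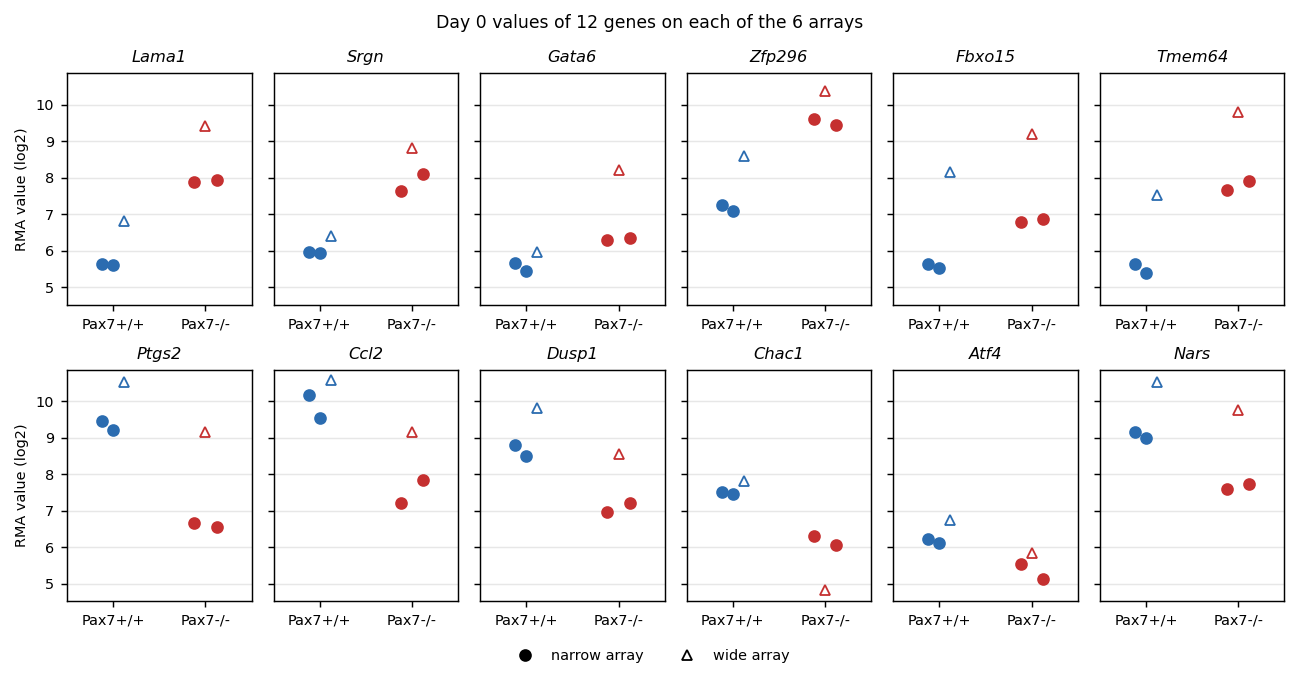
Log2 values of 12 genes (vertical axis) on each of the 6 day 0 arrays, by genotype, with filled circles for narrow and open triangles for wide arrays. Each point is 1 array. Within each set the Pax7-/- points of the upper row lie above the Pax7+/+ points and those of the lower row below them, as for Lama1 (5.62 to 6.82 against 7.87 to 9.41) and Ptgs2 (9.22 to 10.53 against 6.55 to 9.15).

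The core of the pluripotency network did not pass in either direction over all 18 arrays. Pou5f1, Nanog, Sox2, Zfp42 and Esrrb differed by 0.42 ± 0.19, 0.27 ± 0.32, 0.09 ± 0.20, 0.79 ± 0.37 and 0.42 ± 0.33, with adjusted p from 0.391 to 0.917. Of 27 naive pluripotency genes 2 rose and 0 fell, with a median of -0.05. Zfp296, a zinc finger gene of stem cells, read 7.26, 7.08 and 8.58 against 9.62, 10.37 and 9.44, with no overlap (2.17 ± 0.27, 4.49-fold, adjusted p = 0.000872). Fbxo15, an F-box gene known as a marker of stem cells, read 5.64, 5.54 and 8.17 against 6.79, 9.20 and 6.87. It was higher by 1.17 ± 0.13 within each set, although the wide Pax7+/+ array exceeded both narrow Pax7-/- arrays. Both genes passed with any 1 array left out. Fitted on the 6 day 0 arrays alone, 4 naive genes rose (Zfp42, Fbxo15, Tcl1 and Zfp296) and 2 fell (Tfcp2l1 and Nr0b1), with an adjusted p of 0.0182 for Zfp42.

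Genes of the LIF and FGF signalling circuits moved in both directions. Of 18 LIF and Stat3 genes the LIF receptor Lifr (0.61 ± 0.13) and the adhesion gene Ceacam1 (1.19 ± 0.23) were higher, and the kinase gene Pim3 (-1.05 ± 0.20) was lower. None of these 3 held with every array: Lifr lost its call in all 6 fits (adjusted p up to 0.134), Pim3 in 4, and Ceacam1 without Pax7+/+ replicate 2 or 3 (up to 0.0967). Of 22 FGF-ERK genes 1 rose and 3 fell. The one that rose was the feedback inhibitor Spry4, which read 7.81, 7.33 and 8.89 against 8.83, 10.49 and 8.86 (1.38 ± 0.30) and lost its call in all 6 fits (up to 0.155). The 3 that fell, Dusp1, Ier3 and Egr1, are given with the immediate early genes. The primed epiblast factor Zic2 was higher by 0.73 ± 0.16, 1 of 13 primed genes. It passed in 1 of the 6 fits. Of 16 genes of the two-cell-like state with a probe set of their own none passed, yet 14 had a positive difference, with a median of 0.29. Over all genes 11419 of 22180 differences were positive. Zscan4d read 4.82, 4.71 and 4.56 against 5.38, 7.69 and 5.94, and Zscan4e 4.47, 4.29 and 4.65 against 5.72, 9.12 and 5.74. The arrays of the genotypes did not overlap for either gene, but the wide Pax7-/- array stood far above the narrow ones, and the adjusted p was 0.0625 for Zscan4d and 0.103 for Zscan4e. On the 6 day 0 arrays alone Zscan4e passed. Copies of the Zscan4 family are near identical, so their probe sets may not separate them. A further probe set is assigned to 6 Zscan4 genes (Zscan4a to Zscan4f) and so was not among the 22180 genes. It read 4.22, 4.35 and 4.27 against 6.2, 8.63 and 6.08, without overlap and with the wide Pax7-/- array again highest. When every probe set was tested with limma it passed (2.69, adjusted p = 0.0322), 1 of 15 called probe sets with several gene symbols. It was chosen after its value was seen.

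Further large rises belonged to no single group. Tmem64, a transmembrane protein gene, had the smallest p of all genes: 5.63, 5.40 and 7.53 in Pax7+/+ against 7.67, 9.79 and 7.90 in Pax7-/-, or 2.27 ± 0.12 (4.82-fold, adjusted p = 9.31e-08). The amino acid transporter gene Slc7a6 (1.58 ± 0.19), the carbonic anhydrase gene Car2 (1.32 ± 0.19) and the ephrin receptor gene Epha4 (1.34 ± 0.20, 1 of 18 Eph and ephrin genes) also passed in all 6 fits with an array left out. Stag3, a cohesin subunit of meiosis and 1 of 17 meiosis genes to pass, was higher by 1.42 ± 0.31, and Arhgap6 by 1.35 ± 0.31. Stag3 passed in 1 and Arhgap6 in 3 of those fits. The small nucleolar RNA gene Snord13 had the largest difference of the called genes, with 5.68, 6.48 and 8.07 against 9.29, 9.79 and 9.19 (2.68 ± 0.47). It was passed over by the naming rule as a noncoding gene, was chosen after its value was seen, and lost its call without replicate 1 of either genotype (adjusted p up to 0.0596). Of 18 p53 targets and cell cycle brakes the p53 target Perp (0.93 ± 0.13) and the p53 ligase Mdm2 (0.70 ± 0.16) were higher. Perp passed in all 6 fits and Mdm2 in 1.

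Genes of the amino acid response were lower in Pax7-/- cells. Of 30 measured members of the amino acid and ER stress list 0 rose, 9 fell and 21 did not pass, and 28 of the 30 differences were below 0, with a median of -0.39. Chac1, an enzyme that breaks down glutathione and a known ATF4 target, read 7.50, 7.47 and 7.80 in Pax7+/+ and 6.31, 4.82 and 6.05 in Pax7-/-. No array overlapped, and the difference was -1.87 ± 0.29 (3.65-fold lower, adjusted p = 0.00434). Atf4 itself read 6.23, 6.13 and 6.73 against 5.54, 5.83 and 5.12, again without overlap (-0.86 ± 0.12, adjusted p = 0.00208). Cth, which makes cysteine, read 8.55, 8.35 and 9.99 against 6.41, 8.99 and 6.77 (-1.57 ± 0.20), lower within each set while the wide Pax7-/- array exceeded the narrow Pax7+/+ arrays. Aldh18a1 of proline synthesis (-1.08 ± 0.12), Psat1 of serine synthesis (-0.83 ± 0.16) and the ER stress gene Herpud1 (-0.88 ± 0.20) were lower too. So were, beyond the 6 per list that the naming rule allows, the transporter genes Slc7a3 (-0.72 ± 0.15) and Slc3a2 (-0.54 ± 0.12) and the mTORC1 inhibitor Ddit4 (-0.69 ± 0.13). The ER chaperone Hspa5 (0.25) and Xbp1 (0.16) were the members with positive differences and did not pass.

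The enzymes that load amino acids onto tRNAs showed the same direction. Of 18 measured aminoacyl-tRNA synthetase genes 0 rose, 6 fell and 12 did not pass. Below 0 lay 16 differences, with a median of -0.47, against 10761 of 22180 below 0 over all genes. Nars, for asparagine, read 9.14, 8.98 and 10.53 against 7.59, 9.75 and 7.74 (-1.19 ± 0.18, 2.29-fold lower, adjusted p = 0.00299). Lars (-1.0 ± 0.17), Iars (-0.87 ± 0.16), Gars (-0.83 ± 0.14), Sars (-0.70 ± 0.13) and Mars1 (-0.60 ± 0.11) were lower for leucine, isoleucine, glycine, serine and methionine. The genes with positive differences, Farsa (0.37) and Kars (0.26), did not pass. Chac1, Cth, Aldh18a1, Atf4, Nars, Lars and Gars passed with any 1 array left out, with adjusted p up to 0.0423. Over those 6 fits 4 to 9 genes of the amino acid list and 3 to 7 synthetases were lower. Iars and Mars1 lost their calls without replicate 1 of either genotype (up to 0.0595 and 0.0576), Ddit4 without Pax7+/+ replicate 1 or Pax7-/- replicate 2 (up to 0.0763). Psat1 and Sars passed in 3 fits, and Herpud1, Slc7a3 and Slc3a2 in 1. On narrow arrays alone the counts were 7 and 6.

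**Figure D2:**
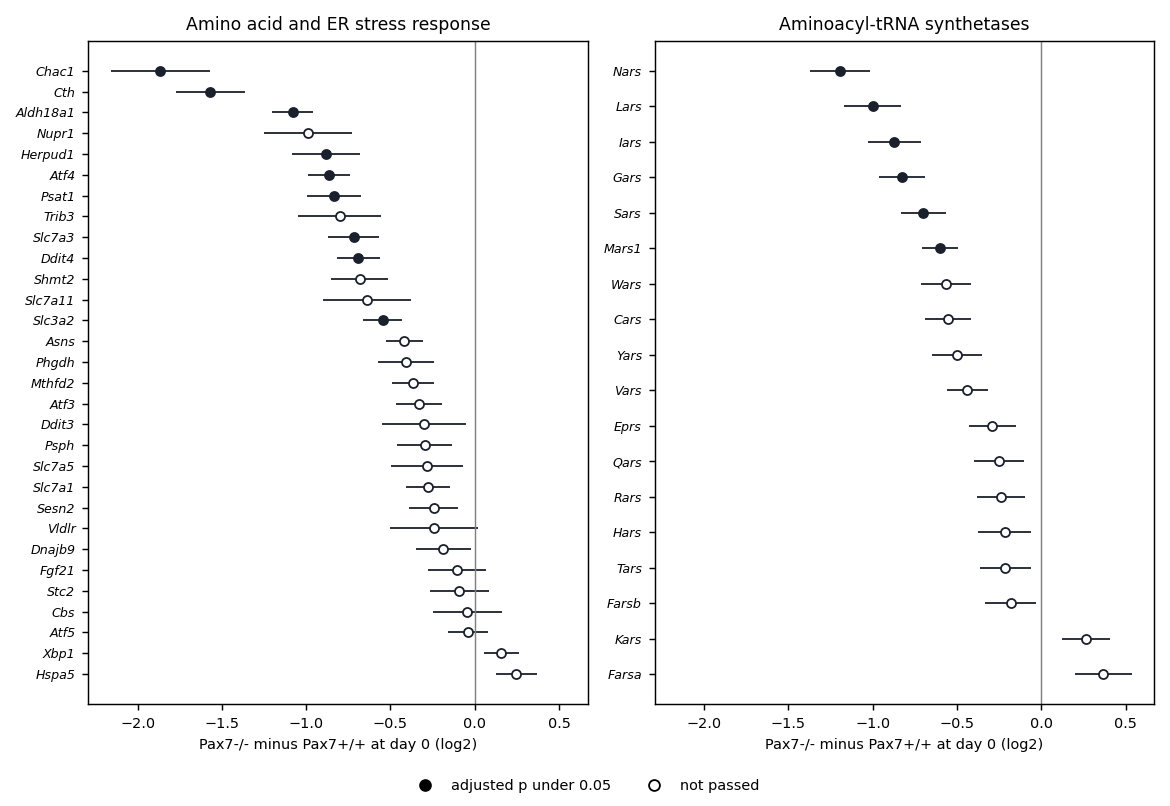
Difference between Pax7-/- and Pax7+/+ at day 0 (log2, horizontal axis) for the 30 amino acid and ER stress genes (left) and the 18 aminoacyl-tRNA synthetases (right), with bars for the standard error. Filled points passed an adjusted p of 0.05: 9 on the left and 6 on the right, all below 0.

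The promoters of lower genes were read for the composite element bound by ATF4 with C/EBP factors, spelled TGATGNAA and searched on both strands from 250 bases before to 50 bases after the RefSeq start (GRCm38.p6). A promoter was found for 152 of the 198 lower genes and 69 of the 86 higher ones. The element stood in 10.5% of the lower promoters (16), 2.9% of the higher ones (2) and 3.48% of all 16918. On the given strand alone the shares were 3.95% of the lower and 1.79% of all promoters. Of the amino acid list 8 of 27 promoters held it, 2 of the 7 of genes that fell (Chac1 and Herpud1) and 6 of genes that did not pass. Of the synthetases 4 of 11 held it, 2 of the 4 of genes that fell (Gars and Iars). These shares are descriptions, and a match is not a shown binding site. The 5 promoters printed next are called genes with a match: Chac1, Gars and Iars from the lists, and Pck2 (mitochondrial phosphoenolpyruvate carboxykinase, -1.09 ± 0.15) and Slc1a4 (a neutral amino acid transporter, -0.77 ± 0.14), picked after their values were seen. Capitals mark the match, which in all 5 lies on the opposite strand. They lie at chr2:119350992-119351291 (Chac1), chr6:55037751-55038050 (Gars), chr13:49681880-49682179 (Iars), chr14:55540016-55540315 (Pck2), all on the + strand, and chr11:20332664-20332963 (Slc1a4, - strand).
Chac1: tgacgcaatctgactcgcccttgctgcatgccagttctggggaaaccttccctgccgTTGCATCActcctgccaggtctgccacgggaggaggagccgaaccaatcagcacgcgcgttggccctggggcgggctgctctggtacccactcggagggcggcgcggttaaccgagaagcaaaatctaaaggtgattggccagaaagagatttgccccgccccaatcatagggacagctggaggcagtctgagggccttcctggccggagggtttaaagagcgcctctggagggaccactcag
Gars: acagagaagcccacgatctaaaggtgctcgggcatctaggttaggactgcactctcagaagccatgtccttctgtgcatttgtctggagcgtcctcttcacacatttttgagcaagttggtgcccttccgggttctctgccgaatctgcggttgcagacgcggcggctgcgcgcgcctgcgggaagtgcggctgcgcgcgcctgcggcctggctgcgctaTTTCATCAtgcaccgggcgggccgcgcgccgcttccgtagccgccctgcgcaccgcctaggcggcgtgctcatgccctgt
Iars: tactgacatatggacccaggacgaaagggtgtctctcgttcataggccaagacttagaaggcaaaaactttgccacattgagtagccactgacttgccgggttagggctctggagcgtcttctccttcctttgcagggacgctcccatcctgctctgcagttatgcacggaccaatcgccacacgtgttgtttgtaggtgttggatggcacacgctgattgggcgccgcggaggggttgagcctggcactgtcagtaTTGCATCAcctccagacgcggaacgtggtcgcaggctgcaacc
Pck2: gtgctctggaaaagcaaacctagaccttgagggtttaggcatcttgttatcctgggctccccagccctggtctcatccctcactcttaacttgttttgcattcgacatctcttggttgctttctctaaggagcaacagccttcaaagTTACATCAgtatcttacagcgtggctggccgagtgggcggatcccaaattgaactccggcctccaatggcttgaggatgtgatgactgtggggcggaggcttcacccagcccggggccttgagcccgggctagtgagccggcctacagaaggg
Slc1a4: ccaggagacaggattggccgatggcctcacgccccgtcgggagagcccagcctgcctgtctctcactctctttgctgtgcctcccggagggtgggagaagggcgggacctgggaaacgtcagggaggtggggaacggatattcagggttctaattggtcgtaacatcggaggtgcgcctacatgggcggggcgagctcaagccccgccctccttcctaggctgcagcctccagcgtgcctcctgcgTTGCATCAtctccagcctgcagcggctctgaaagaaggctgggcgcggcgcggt
The match begins 193 bases before the start in Chac1, 30 before it in Gars, 103 before it in Pck2 and 4 before it in Slc1a4, and 7 bases past it in Iars. Pck2 read 7.76, 7.55 and 9.31 against 6.83, 7.73 and 6.79, and Slc1a4 6.31, 6.48 and 8.15 against 5.81, 6.90 and 5.92. Both were lower within each set. Pck2 passed with any 1 array left out, and Slc1a4 lost its call without Pax7+/+ replicate 3 (adjusted p up to 0.0544). The composite element was 1 of several motifs read in the same way, and the others follow. The E-box CACGTG stood in 17.4% of higher, 10.5% of lower and 8.2% of all promoters, and the homeodomain core TAATTA in 1.45%, 3.29% and 4.58%. In the same order the GATA motif AGATAA stood in 4.35%, 6.58% and 9.98%, and the AP-1 motif TGANTCA in 7.25%, 5.92% and 7.37%. The CArG box stood in 1.45%, 3.29% and 1.46%, and the cAMP response element TGACGTCA in 4.35%, 0.658% and 2.45%. GAAANNGA, part of the interferon response element, stood in 10.1%, 22.4% and 20.3%.

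Of 21 immediate early genes, the first to be switched on by growth factors and stress, 0 rose, 5 fell and 16 did not pass, with a median of -0.19. Dusp1, the phosphatase that turns off MAP kinases, read 8.80, 8.48 and 9.81 against 6.96, 8.55 and 7.21 (-1.46 ± 0.17, adjusted p = 0.000476). Ier3 read 8.54, 8.10 and 9.22 against 6.91, 8.04 and 6.99 with no overlap (-1.30 ± 0.14). The AP-1 subunit Fos (-1.33 ± 0.29), the mRNA decay factor Zfp36 (-0.94 ± 0.18) and the zinc finger factor Egr1 (-0.56 ± 0.13) were also lower. Dusp1 and Ier3 passed with any 1 array left out, Zfp36 in 2 of the 6 fits and Fos and Egr1 in 1.

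Inflammatory, matrix and adhesion genes were among the largest falls. Ptgs2, the inducible cyclooxygenase, read 9.47, 9.22 and 10.53 in Pax7+/+ and 6.66, 9.15 and 6.55 in Pax7-/- (-2.28 ± 0.33, 4.87-fold lower, adjusted p = 0.0022). The chemokine gene Ccl2 read 10.16, 9.54 and 10.57 against 7.21, 9.16 and 7.84 (-2.02 ± 0.44). No array of one genotype overlapped the other for either gene. With the cytokine gene Csf1 (-1.03 ± 0.24) they were the 3 of 24 chemokine and acute phase genes that fell, none rising, with a median of -0.40. Of 20 matricellular and adhesive proteins 6 fell and 1, Sparc, rose, with a median of -0.50. Emilin2 read 7.68, 7.71 and 8.68 against 6.29, 5.77 and 6.67 with no overlap (-1.78 ± 0.30). The tenascin gene Tnc (-1.49 ± 0.31), the thrombospondin Thbs1 (-1.37 ± 0.18), fibronectin, Fn1 (-1.05 ± 0.22), and the secreted Ccn2 (-0.97 ± 0.12) and Ccn1 (-0.90 ± 0.19) were lower. The metalloprotease inhibitors Timp1 (9.31, 8.84 and 10.20 against 7.63, 9.36 and 7.27, -1.36 ± 0.18) and Timp2 (-1.38 ± 0.20) were the 2 of 15 matrix protease genes that passed. Of 17 integrins the fibronectin receptor chain Itga5 (-0.75 ± 0.15) fell. Of 20 actin and SRF-MRTF genes Tagln (-0.83 ± 0.18), Tpm1 (-0.75 ± 0.13) and Zyx (-0.70 ± 0.14) fell. Ptgs2, Emilin2, Thbs1, Ccn2, Timp1 and Timp2 passed with any 1 array left out. Tpm1 lost its call without Pax7+/+ replicate 1 (adjusted p up to 0.06), and Ccl2, Csf1, Tnc, Fn1, Ccn1, Itga5, Tagln and Zyx passed in 1 of the 6 fits.

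Fibroblast markers moved with these genes. The mean over 9 of them was 6.27 to 6.30 in Pax7+/+ and 5.96 to 5.98 in Pax7-/- on narrow arrays, and 7.21 against 6.22 on wide ones. None of the 9 passed, their median difference was -0.56, and 1 of them lay below the median level of all genes. Over a longer list of 23 fibroblast markers and fibrillar collagens 22 differences were below 0, with a median of -0.41 and 0 calls. Over all genes 10761 of 22180 differences were below 0. Fitted on the 6 day 0 arrays alone, 4 of the 23 fell (Dcn, Bgn, Prrx1 and Lox). Pdgfrb read 6.23, 5.80 and 8.12 against 5.43, 6.74 and 5.66 (adjusted p = 0.0649), and Vim 10.91, 10.62 and 11.32 against 10.16, 10.96 and 10.17 (0.0996). Their part in the lower matrix and chemokine genes was not tested. The endoderm markers moved the other way, with means over 9 genes of 6.33 to 6.38 against 6.96 to 7.04 on narrow arrays and 6.40 against 7.62 on wide ones, and 4 of the 9 called higher.

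**Figure D3:**
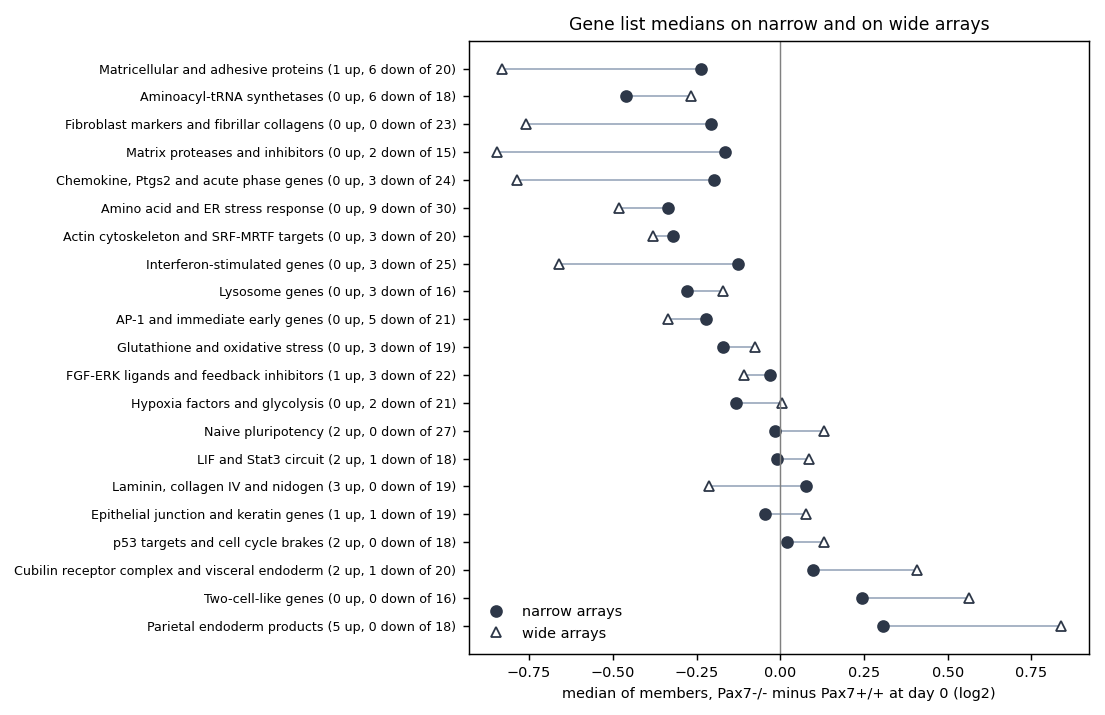
Median difference of each gene list between Pax7-/- and Pax7+/+ at day 0 (log2, horizontal axis), on narrow arrays (filled circles) and wide arrays (open triangles). Shown are the lists with at least 2 called genes, the fibroblast list and the two-cell-like list, with their counts. The matricellular list lies at -0.24 and -0.83 and the parietal endoderm list at 0.31 and 0.84, while the synthetases lie at -0.46 and -0.27.

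Further lists held 1 to 3 called genes each. Of 25 interferon-stimulated genes 3 fell and 0 rose, with a median of -0.27: Usp18, a protease of the ISG15 tag (-1.45 ± 0.31), the membrane protein Ifitm3 (-0.85 ± 0.18) and the RNA sensor Ddx58 (-0.78 ± 0.18). All 3 lost their calls in 5 of the 6 fits with an array left out, with adjusted p up to 0.134, 0.141 and 0.224. Of 16 lysosome genes Ctsa (-0.85 ± 0.14), Hexa (-0.80 ± 0.10) and Npc2 (-0.56 ± 0.13) fell. Hexa, a subunit of the enzyme that degrades GM2 ganglioside, read 6.42, 6.04 and 9.04 against 5.42, 8.28 and 5.39. Ctsa and Hexa passed in all 6 fits and Npc2 in none (up to 0.171). Of 19 glutathione and oxidative stress genes catalase, Cat (-0.86 ± 0.17), Txnrd1 (-0.67 ± 0.15) and Gpx4 (-0.41 ± 0.09) fell, passing in 3, 1 and none of the fits, and no gene of this list passed on the day 0 arrays alone. The growth factor Vegfa (-0.95 ± 0.13, all 6 fits) and Hif1a (-0.54 ± 0.11, 2 fits) were the 2 of 21 hypoxia and glycolysis genes that passed. Rrm2, the ribonucleotide reductase subunit, fell alone among 20 replication genes (-0.82 ± 0.14, all 6 fits), and the tight junction gene Cldn4 fell by 1.12 ± 0.16 among 19 epithelial genes (all 6 fits), of which Krt18 rose.

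Among single genes, Septin1, a filament-forming GTPase and the only one of 18 septin and tubulin genes to pass, read 9.30, 9.07 and 9.88 against 7.48, 8.61 and 7.40 with no overlap (-1.59 ± 0.27). Reep6 read 9.21, 8.82 and 10.30 against 6.88, 9.36 and 7.55 (-1.51 ± 0.21). Both passed in all 6 fits. Mid1, a ubiquitin ligase gene (-1.54 ± 0.31), and the phospholipid binder Anxa5 (-1.40 ± 0.27) each passed in 3. No member passed among the lists for ribosomal proteins, mitosis, cholesterol synthesis, BMP, Nodal, Wnt or Notch signalling, Pax genes, myogenic regulators, neural crest, neural progenitors or trophoblast. The same held for the lists of Dppa, histone, nucleolar, fatty acid, retinoic acid and blood and endothelial genes. On the 6 day 0 arrays alone 1 gene each passed for ribosomal proteins, mitosis, BMP, Nodal, neural crest and retinoic acid, and none in the other lists of this kind. Of DNA methyltransferase and Tet genes 0 of 8 passed, with Tet1 at -0.61 ± 0.15 (adjusted p = 0.0657). All 8 differences were below 0 (-0.61 to -0.05), against 10761 of 22180 over all genes.

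Chromosomes 8 and 11 together held 45 of the 86 higher genes, 22 and 23 of them. This was 1.68% of the 2685 genes measured there, against 41 of 19495 elsewhere (0.21%). Of the 198 lower genes they held 11. Over the 25% of genes with the highest mean values, the median difference was 0.15 on chromosome 8 and 0.16 on chromosome 11, and between -0.10 and -0.05 on each of the other chromosomes. Both array sets showed it for the pair, with medians of 0.11 on narrow and 0.28 on wide arrays. Their rises were mostly small, with a median of 0.66, and 3 reached 2-fold: Snord13, Slc7a6 and Ranbp17 (1.01, passing in 1 of the 6 fits with an array left out). On narrow arrays alone 18 higher genes lay there, and with 1 array left out 17 to 26. Sparc lies on chromosome 11, while the other named rises of the endoderm and pluripotency lists lie elsewhere. Cultured mouse stem cells are known to gain whole chromosomes, chromosome 8 most often. Chromosome number was not measured here, and its part in these differences was not tested. Within 10 Mb of Pax7, on chromosome 4, 318 genes were measured, of which 0 rose and 3 fell (Pdpn, Pnrc2 and Snora73b), with a median of -0.01.

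**Figure D4:**
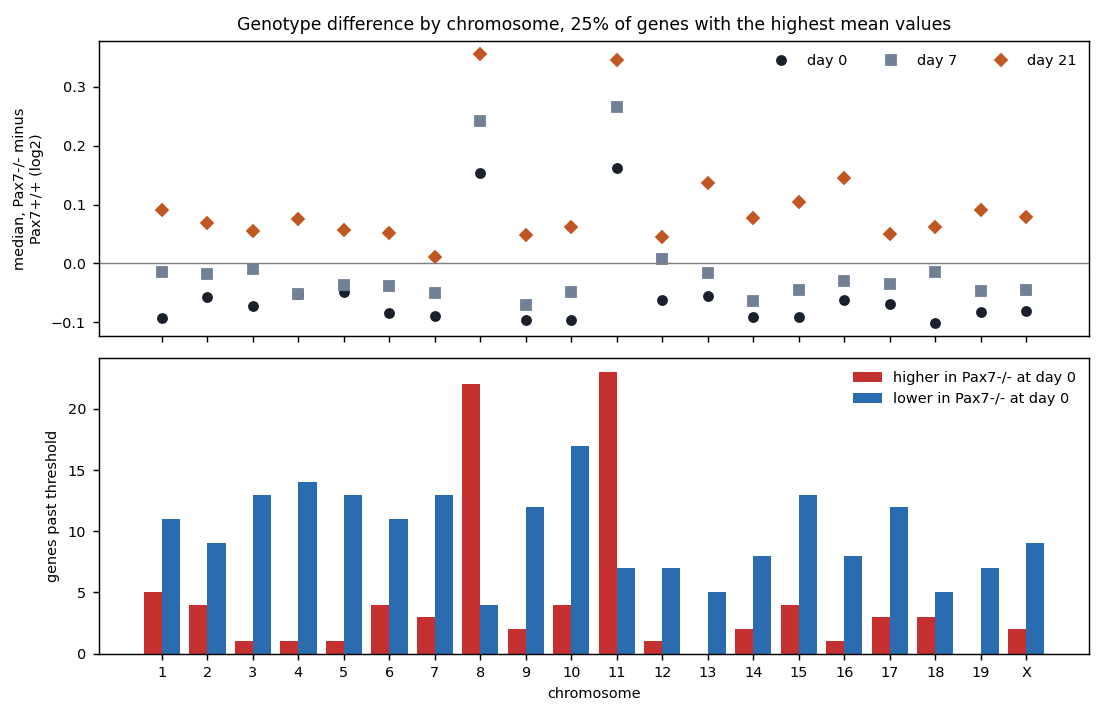
Upper panel: median difference between Pax7-/- and Pax7+/+ (log2) on each chromosome, over the 25% of genes with the highest mean values, at days 0, 7 and 21. Lower panel: genes called higher and lower at day 0 on each chromosome, with 22 and 23 higher genes on chromosomes 8 and 11 and at most 5 on any other.

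The size of the difference was compared between array sets. It differed past threshold for 8 of the 284, a larger share than the 438 of all 22180 genes (1.97%). A difference between sets adds to the spread in the main fit, so such genes were less likely to be called. These counts therefore do not show that the sizes were the same in both sets. Arhgap6 read 0.74 on narrow and 2.56 on wide arrays, Gata6 0.77 and 2.24, Ceacam1 0.66 and 2.24, and Mid1 -1.0 and -2.63. For these 4, which had the smallest p for this difference, the wide arrays gave the larger difference in size. Each set held only 1 or 2 arrays per genotype.

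Most of the 284 genes did not pass in the same direction at the later days, but those that did were a larger share than of all genes. All days share 1 estimate of the spread per gene in the fit. Genes called at day 0 were therefore more likely to pass at a later day in either direction, so this larger share is no separate support. The later days were compared on other arrays. There the genotypes were not balanced over the array sets: Pax7+/+ had 1 narrow and 2 wide arrays at day 7 and 2 narrow and 1 wide at day 21, and Pax7-/- the reverse. Each difference at days 7 and 21 therefore rests on the array set term of the fit. At day 7, where 139 genes (0.627%) differed between genotypes, 20 of the 284 passed in the same direction and 10 in the opposite one. At day 21, with 1085 genes (4.89%), 60 passed in the same direction and 21 in the opposite one. Of the 60 shared at day 21, 35 came from the 86 higher and 25 from the 198 lower genes. Whether called or not, 74.4% and 73.3% of the 86 higher genes kept their sign at days 7 and 21, with medians of 0.24 and 0.37. Of the 198 lower genes 60.1% and 54.0% did, with medians of -0.06 and -0.05. Of the 45 higher genes on chromosomes 8 and 11, 28 were higher again at day 21, against 7 of the 41 elsewhere. The median of the chromosome pair was 0.26 at day 7 and 0.35 at day 21, or 0.21 and 0.29 on narrow and 0.29 and 0.36 on wide arrays. The genotype difference itself changed from day 0 to day 7 for 63 of the 284 and to day 21 for 104, against 0.482% and 1.86% of all genes. Genes chosen as different at day 0 will count high for such a change, since the day 0 arrays enter both tests. Of the 63 and 104 changed genes, 57 and 78 had the later direction of the fit in both array sets. For 35 and 18 of them the plain group means ran the other way. All 20 and 60 genes shared with day 0 and all 10 and 21 opposite ones kept the direction of the fit within each set. So did all 139 genes called at day 7 and 1083 of the 1085 called at day 21, so this follows largely from the call.

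Of the called genes 9 kept direction and call at all 3 days, among them Mest, the only one of 18 imprinted genes called at day 0, with 1.24 ± 0.26, 1.43 and 1.45 at days 0, 7 and 21. It passed at day 0 in 1 of the 6 fits with an array left out. The reductase gene Cyb5r3 (-1.18 ± 0.14, then -1.08 and -0.85), the small nucleolar RNA gene Snora73b (-1.16 ± 0.19, then -1.43 and -0.83), Ctsa (-0.85, -0.76 and -0.91), Hexa (-0.80, -0.68 and -0.81) and the deubiquitinase gene Usp22 on chromosome 11 (0.74 ± 0.11, then 0.59 and 0.56) were the other named ones, and passed in all 6 fits. The plain means of Hexa at day 21, 7.32 in Pax7+/+ and 7.45 in Pax7-/-, run the other way, since Pax7-/- had more wide arrays there. Within the sets its day 21 difference was -0.85 on narrow and -0.79 on wide arrays. Lama1 went from 2.38 at day 0 to 0.08 at day 7 and -1.22 at day 21, and Zfp296 from 2.17 to -0.69 and -0.12. For the values nearest 0 the sign depends on the array set term. Lama1 at day 7 differed by 0.01 on narrow and -0.10 on wide arrays, and Zfp296 at day 21 by -0.09 and 0.375. Lama1 was lower in Pax7-/- at day 21 (adjusted p = 0.0023), as were Lamb1 (-1.32) and Nid2 (-1.09). Ccn1 and Ccn2 were lower at day 0, higher at day 7 (1.21 and 0.70) and lower again at day 21 (-0.72 and -0.87).

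**Figure D5:**
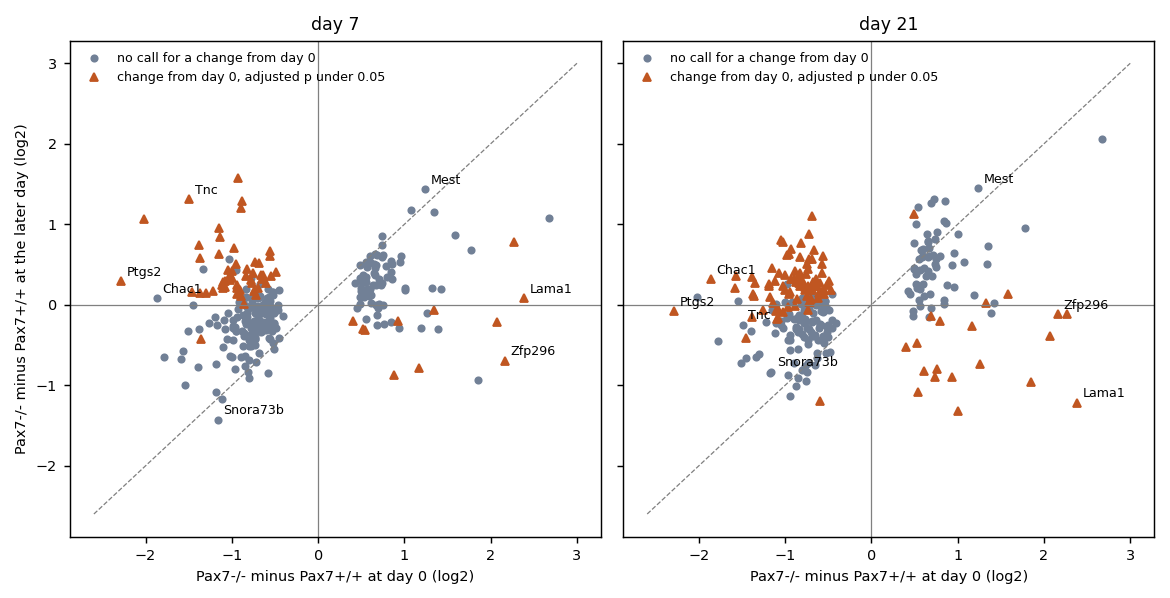
Difference between Pax7-/- and Pax7+/+ at day 7 (left) and day 21 (right) against that at day 0 (log2), 1 point for each of the 284 genes called at day 0, with a dashed line of equality. Triangles mark the 63 and 104 genes whose difference changed. Mest stays near the line at both days, and Lama1 lies far below it.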

How the data were processed

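RNA was measured on 18 Affymetrix arrays. The authors deposited RMA log2 values per probe set, and the submitters' processing notes name RMA and Partek with no versions. Whether all arrays were summarised together is not given in the sources used here. Among 41345 probe sets 1 gene symbol was given for 23521, several for 1814 and none for 16010; the probe set with the highest mean was kept per gene, with no filter on low values. limma 3.58.1 (R 4.3.3) fitted 6 group means and the array set over all 18 arrays (11 residual degrees of freedom), with Benjamini-Hochberg adjustment over 22180 genes. Array number limits the precision, and the p-values cover the spread between labelled biological replicates, whose origin is not described. The replicate numbers were not taken as pairs. Same-numbered day 0 arrays correlated at 0.12, -0.21 and -0.22 after removing group means and the array set term. Replicates 2 and 3 each join a narrow and a wide array. Over all pairs, arrays of the same set correlated at 0.12 to 0.27 and arrays of different sets at -0.18 to -0.22. These values follow the array set, so they cannot decide whether the numbers are pairs.

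The genes, 48 lists and tests were chosen with earlier results of these data known, and no list was tested as a set. Named were the 12 largest rises and falls of at least 2-fold without overlap within a set (predicted and noncoding symbols passed over), up to 6 called members per list or the 2 with the smallest p, Pax7 and 5 stem cell genes, up to 4 genes differing between sets and up to 6 shared or changed at later days. Exceptions are marked. Tested on simulated data, the fit recovered 31.3%, 88.1% and 100% of day 0 changes of 0.5, 1 and 2 log2 over 22180 genes, with 5 false calls. These data had independent noise and 1 array set effect for all days, as the fit itself assumes. The shares therefore check the fit and do not give the recovery on the real arrays. Promoters come from RefSeq, and gene identifiers matched for 21994 genes. Alternatives covered blocks, scaling, filters, probe set choice, limma options, thresholds and each array left out; leaving out chromosomes 8 and 11, testing every probe set and giving days 7 and 21 within array sets were chosen after seeing the data. Figures: matplotlib 3.10.9.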

Additional observations from a re-analysis of the deposited data

Results flagged for a closer look

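The results below were singled out because the genotype difference (Pax7-/- minus Pax7+/+, log2) at day 7 or day 21 differed from that at day 0, by the limma contrast of the 2 differences (adjusted p under 0.05). Each value is the later difference minus the day 0 difference, so for a gene that was higher at day 0 a negative value means that the excess shrank or turned. The comparison of 2 days shares its day 0 arrays with the choice of the genes, and no cause was tested.

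Among endoderm and basement membrane genes the difference changed to days 7 and 21 for Lama1 by -2.30 and -3.60, Srgn by -2.28 and -2.46 and Nid2 by -0.86 and -1.62. To day 21 alone it changed for Cubn by -2.82, Lamb1 by -2.32, Gata6 by -1.99, Krt18 by -1.83 and Sparc by -1.0. Among stem cell and signalling genes it changed to both days for Zfp296 by -2.86 and -2.28 and Fbxo15 by -1.95 and -1.44, to day 21 for Lifr by -1.43, Sox2 by 1.32 and Tet1 by 1.36, and to day 7 for Pim3 by 1.48, Zscan4d by -3.07 and Zscan4e by -4.76. Sox2, Tet1 and both Zscan4 genes had not passed at day 0.

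Of amino acid response genes the differences rose towards or past 0, to days 7 and 21 for Herpud1 by 2.17 and 1.30, Ddit4 by 1.21 and 1.80 and Slc1a4 by 1.04 and 0.96. To day 21 alone they changed for Chac1 by 2.18, Cth by 1.92, Psat1 by 1.43, Slc7a3 by 1.6, Atf4 by 0.93, Aldh18a1 by 0.92 and Pck2 by 0.91, and to day 7 alone for Slc3a2 by 0.90. Of synthetases Lars changed by 1.42 and 1.37. The difference of the others changed to day 21 for Nars by 1.46, Gars by 1.22, Iars by 1.15 and Mars1 by 0.87, and to day 7 for Sars by 0.91.

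Matrix, chemokine and immediate early genes changed to days 7 and 21 for Ptgs2 by 2.58 and 2.20, Timp2 by 2.13 and 1.23, Timp1 by 1.94 and 1.47, Thbs1 by 1.52 and 1.51, Dusp1 by 1.62 and 1.05 and Tagln by 1.28 and 1.07, and Vim, not passed at day 0, by 1.01 and 0.86. To day 7 alone they changed for Ccl2 by 3.08, Tnc by 2.81, Ccn1 by 2.11, Ccn2 by 1.68, Ier3 by 1.45, Egr1 by 1.17, Tpm1 by 1.14 and Vegfa by 1.08. Of other genes the difference changed to days 7 and 21 for Tmem64 by -1.49 and -2.38, Pdpn by 0.87 and -0.60 and Pnrc2 by 1.09 and 1.23, to day 21 for Slc7a6 by -1.44, Car2 by -1.30, Txnrd1 by 0.90, Rrm2 by 1.58 and Septin1 by 1.79, and to day 7 for Epha4 by -1.41 and Perp by -1.13.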

How the results depend on the processing

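Every day 0 value rests on 3 arrays per genotype, and for arrays depth is not a limit that can be given. With the array set in the fit 284 genes passed (86 higher, 198 lower), 68 of them at 2-fold or more, 45 higher on chromosomes 8 and 11, 20 and 60 shared with days 7 and 21, and 63 and 104 changed by then. Without the array set each of these counts was 0. Below they are given in the same order. An array set effect for each day gave 625 (203 higher, 422 lower), 104, 93, 47, 120, 143 and 223. Quantile normalization gave 466 (179 higher), 108 at 2-fold, 92, 41, 100 and, changed by day 7, 114. Scaling to 1 spread gave 335, with 135 higher and 69 on chromosomes 8 and 11. Narrow arrays alone gave 238, with 49 higher, 18 on that pair, and 3 and 23 shared. Without moderation 183 genes passed (56 higher, 127 lower), 42 at 2-fold, 12 shared with day 7 and 31 changed by then. An adjusted p of 0.01 gave 94 (18 higher, 76 lower), 43, 10, 4, 14, 21 and 32, and an adjusted p of 0.1 gave 501 (171 higher, 330 lower), 94 on the pair, 56, 127, 112 and 190. With 12 group-by-set means over all 18 arrays (6 residual degrees of freedom), the wide arrays gave 1897, 703 of them at 2-fold, and the narrow ones 314 and 88; the wide comparison has 1 array per genotype, assumed to vary like the other groups. Without the genes of chromosomes 8 and 11, an alternative chosen after seeing the data, 207 passed, with 37 higher and 26 shared with day 21.

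With the replicate block added to the array set 131 genes passed (34 higher, 97 lower), 14 higher on the pair, 1 and 18 shared and 30 and 40 changed. It has 5 residual degrees of freedom, and whether the numbers pair the arrays could not be told. With 1 array left out the counts ranged from 120 to 184 (29 to 45 higher, 79 to 152 lower), 40 to 66 at 2-fold, 17 to 26, 10 to 17, 30 to 37, 30 to 55 and 46 to 100. The filter at the median gave 375 genes, and filters, probe set choice and other limma options kept the count within 1.5 times of 284 except where named. Of the 87 called genes named in the text none changed direction under any alternative run. Many lost their call, though: 40 without moderation, 34 with the replicate block, 23 on narrow arrays alone and 16 with scaling to 1 spread. In the scaled limma fit these included Egr1 (adjusted p = 0.255), Lamb1 (0.235), Ccn1 (0.203), Sparc (0.138), Ifitm3 (0.113) and Tnc (0.0797). Pax7 reversed on wide arrays (-0.036), and with 1 array left out Pax7 (-0.13 to 0.18), Sox2 (-0.019 to 0.17) and Esrrb (-0.063 to 0.71), none of which passed. Alternatives changed the median of all genes by less than 0.1.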

Other observations

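Probe sets that carry no or several gene symbols stay out of the comparison above. With every probe set tested on its own, an alternative chosen after seeing the data, 37 of 16010 probe sets without a symbol passed (0.231%, 20 higher and 17 lower). Of 1814 probe sets with several symbols 15 passed (0.827%, 10 higher and 5 lower), and of 23521 with 1 symbol 181 passed (0.77%, 46 higher and 135 lower). The 15 are not separate signals. Several of the higher ones share the symbols of a Gm4340 cluster and read the same on every day 0 array. Among the lower ones the pair Rbpms2 and Gm3470 occurs more than once. The larger number of probe sets makes the adjustment stricter than in the test over genes.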
